A study of Homo sapiens with 12 samples.

Results

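MAP kinase signalling is restrained by dual-specificity phosphatases and Sprouty proteins, and 10 of their genes were followed here by ribosome profiling. The phosphatase genes were DUSP1 (ENSG00000120129), DUSP2 (ENSG00000158050), DUSP4 (ENSG00000120875), DUSP5 (ENSG00000138166), DUSP6 (ENSG00000139318), DUSP8 (ENSG00000184545), DUSP10 (ENSG00000143507) and DUSP16 (ENSG00000111266). The Sprouty genes were SPRY2 (ENSG00000136158) and SPRY4 (ENSG00000187678). They were chosen by function, with earlier results of these data known, and found by their Ensembl identifiers. All 10 were present among the 19580 genes measured. The assay sequences the mRNA fragments that ribosomes shield from RNase I, so a gene's read density follows the ribosomes on its mRNA. The cells were HAP1, a near-haploid human line derived from KBM-7, wild type in genotype, so every group is the same single line. One group received 4-thiouridine (4SU) at 5 uM for 18 h, then UVA at 6 kJ per square metre with harvest 30 min later, and is called 4SU+UVA. The others received 4SU alone, UVA alone or neither, with 3 biological replicates per group and 12 libraries in all. Cells build 4SU into new RNA in place of uridine, and UVA then makes it bond to nearby protein, so the combination served to induce crosslinks between RNA and protein.

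MAP kinases are switched on when a Thr and a Tyr of their activation loop are both phosphorylated, and dual-specificity phosphatases switch them off by removing both phosphates. ERK is best known for growth signals, whereas JNK and p38 respond to stress, including stalled or colliding ribosomes. Many of these inhibitors are encoded by early response genes with short-lived mRNAs, which makes them feedback regulators of the pathway that induces them. DUSP1, DUSP8, DUSP10 and DUSP16 are taken here as phosphatases that prefer JNK and p38, although DUSP1 can also act on ERK. DUSP4, DUSP5, DUSP6, SPRY2 and SPRY4 are taken as ERK feedback genes, and DUSP2, a nuclear phosphatase of broad reach known from lymphocytes, was kept apart.

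Promoter stretches of 2 genes are shown because DUSP1 and DUSP8, both JNK and p38 phosphatases, held a full cyclic AMP response element (CRE), TGACGTCA, which CREB and ATF family factors bind. Sequences are from RefSeq (GRCh38.p14), read on the gene's strand, with the CRE and its core TGACG in capitals on either strand.
DUSP1, chr5:172771290-172771379, minus strand: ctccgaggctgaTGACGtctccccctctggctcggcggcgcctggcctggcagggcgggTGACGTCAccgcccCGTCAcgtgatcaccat
DUSP8, chr11:1572372-1572399, minus strand: cgggctccgcTGACGTCAcctgcccccg
DUSP8, chr11:1572328-1572355, minus strand: tggctgcaggTGACGTCAggggcttttt

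DUSP1 lies on chromosome 5 from 172768096 to 172771195, and its CRE began 125 nt before the annotated start, with further cores 172 and 111 nt before it. DUSP8 lies on chromosome 11 from 1554051 to 1572848, on the minus strand. Its RefSeq window is built on a start at 1572271, 577 nt inside that span, and its 2 CREs began 118 and 74 nt before this start. They therefore lie within the annotated gene span. The ERK feedback genes DUSP4 and DUSP5 had no RefSeq window and were not searched. Windows of 250 nt before to 50 nt after a start were at hand for the other 8 genes, 11 windows in all. No other of these windows held the full CRE, which was present in 1.85% of the 35116 windows of all genes, and at least 2 copies in 0.0598%. The core TGACG, which every CRE holds on both strands, was found in 24.6% of all windows. Among the genes described here it also occurred in 1 window each of DUSP10, SPRY2 and SPRY4. Matches to TGANTCA (AP-1), to CCGGAAGT (ETS) and to the CArG box, searched on both strands, were absent from the 11 windows and present in 7.71%, 4.14% and 1.29% of all windows. A match is a stretch of letters and not a measured binding site.

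**Figure D1:**
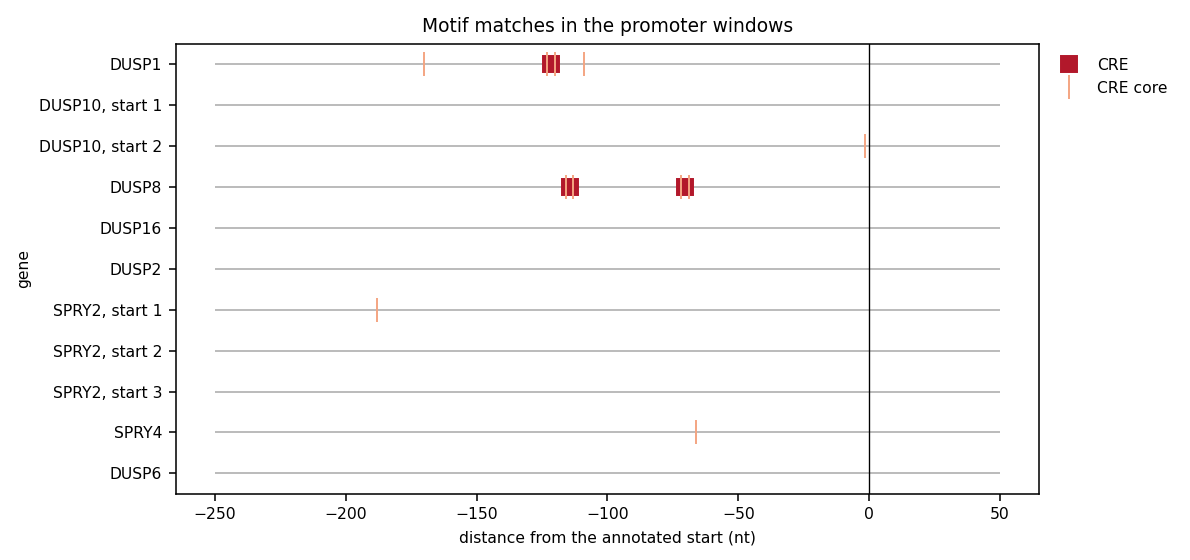
Motif matches along 11 promoter windows of 8 genes, plotted by distance from the annotated start in nt, with 1 row per start. Squares are full CREs and ticks are CRE cores, and full CREs appear in the rows of DUSP1 and DUSP8.

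Library totals, recovered from the steps of the RPKM values (read density scaled to transcript length and library size), were 1899854 to 5526950 reads with 4SU+UVA, 3991129 to 4514227 with 4SU, 3358145 to 5425688 with UVA and 3785480 to 5832366 in untreated cells. Replicate 2 of 4SU+UVA was the shallowest library. Footprints were set against the length of the whole transcript, so levels of different genes also depend on how much of each transcript is coding. Footprint density follows both mRNA amount and ribosome load, and neither these nor more expressing cells and more mRNA per cell can be told apart. Moving and stalled ribosomes are counted alike, so a higher density need not mean more translation. Changes are differences of mean log2(RPKM + 0.5), tested with limma over the 11510 genes that reached 1 RPKM in 3 or more libraries, with Benjamini-Hochberg adjustment and a threshold of 0.05. Of the 10 genes, 8 passed that filter and DUSP8 and SPRY4 did not. DUSP10 passed through its 3 4SU+UVA libraries alone, so the filter favoured its tests of that group.

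In untreated cells DUSP2 was the most densely footprinted gene of the set at 12.4 ± 1.77 RPKM, followed by DUSP1 at 10.1 ± 1.28 and DUSP16 at 4.57 ± 0.116 RPKM (SD, n = 3 each). DUSP2 and DUSP1 overlapped between libraries, and both lay above DUSP16. DUSP6, DUSP5 and SPRY2 averaged 1.93 ± 0.588, 1.69 ± 0.542 and 1.41 ± 0.112 RPKM, with overlap between neighbours. DUSP4, DUSP10, DUSP8 and SPRY4 stayed below 1 RPKM in every untreated library, and neighbours in that order overlapped too.

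With 4SU+UVA the order changed, and DUSP1 moved to the top at 43.3 ± 8.15 RPKM, without overlap with DUSP2 at 18.8 ± 1.97 RPKM (SD, n = 3 each). DUSP10 moved to the fifth place at 2.01 ± 0.541 RPKM, where it overlapped with both of its neighbours, SPRY2 and DUSP6.

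**Figure D2:**
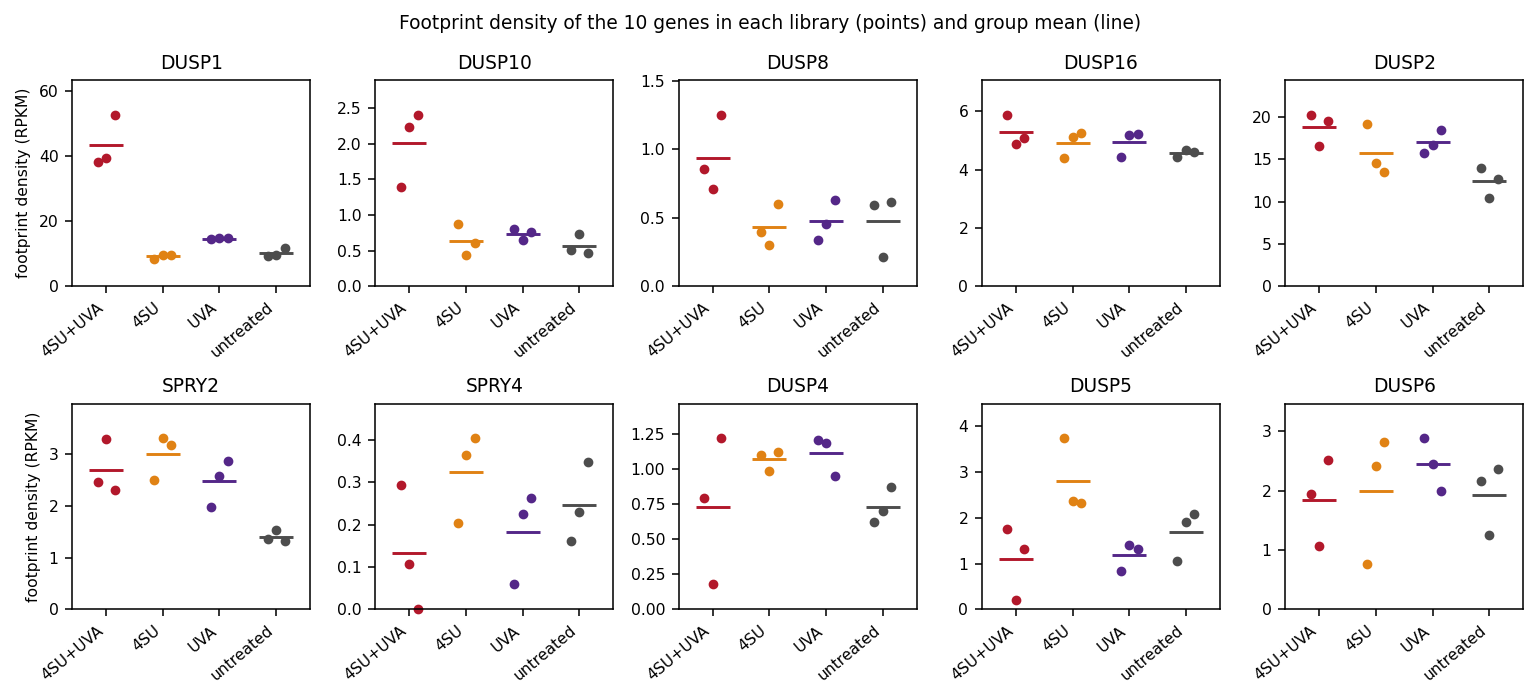
Footprint density in RPKM of each of the 10 genes in the 4 groups, with 1 point per library, a line at the group mean and a separate linear axis from 0 for each gene. The 4SU+UVA points of DUSP1, DUSP10 and DUSP8 lie above all points of the other 3 groups, while those of DUSP16, DUSP2, SPRY2, SPRY4, DUSP4, DUSP5 and DUSP6 overlap with at least 1 group.

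Against untreated cells, 4SU+UVA raised footprints on DUSP1, DUSP2 and SPRY2, and none of the 8 tested genes fell. DUSP10 passed too, but it is left out of the counts because it entered the test through its 4SU+UVA libraries. These 3 of the other 7 compare with 59.0% of all tested genes that passed in either direction and 40.6% that rose, so the share is near the background, and the sizes carry the description. The median log2 change of all tested genes was 0.23 under the deposited scaling, 0.06 after median centring of each library and 0.04 after quantile normalisation. Called changes are therefore also given relative to the median gene of their contrast. Of the same 7 genes 4 had 4SU+UVA libraries wholly above the untreated ones, where 43.6% of all tested genes did.

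DUSP1, the archetype of the family and a nuclear phosphatase of p38 and JNK, showed the largest rise of the set. Its density was 38.02, 39.2 and 52.7 RPKM with 4SU+UVA, 8.34, 9.60 and 9.68 RPKM with 4SU, 14.3, 14.7 and 14.8 RPKM with UVA, and 9.19, 9.60 and 11.6 RPKM in untreated cells. All 3 4SU+UVA libraries lay above the other 9, the UVA libraries lay above both remaining groups, and 4SU and untreated cells overlapped. The rise over untreated cells was 4.10-fold (log2 2.04, SE 0.13, limma adjusted p = 1.5e-08), or 1.80 above the median gene on the log2 scale, and it ranked 36 from the top among 11510 genes. It was 4.47-fold over 4SU alone (limma adjusted p = 1.6e-08), or 2.07 above the median gene on the log2 scale, and 2.87-fold over UVA alone (limma adjusted p = 2.3e-07), or 1.34 above it.

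DUSP10, which acts on p38 and JNK in nucleus and cytoplasm, was low before treatment and densest with the combination. Its density was 1.40, 2.24 and 2.41 RPKM with 4SU+UVA, 0.871, 0.434 and 0.599 RPKM with 4SU, 0.805, 0.641 and 0.753 RPKM with UVA, and 0.510, 0.732 and 0.464 RPKM in untreated cells. The 4SU+UVA libraries did not overlap with the other 9, which overlapped among themselves. Its log2 difference was 1.22 from untreated cells, 1.14 from 4SU and 1.01 from UVA, or 0.98, 1.05 and 0.83 above the median gene. The filter admitted DUSP10 through the group where it was high, so its filtered p-values are not given as support. In the fit with no filter, which it enters in any case, limma adjusted p was 0.000413 against untreated cells, 0.00103 against 4SU and 0.00173 against UVA. The pseudocount understates a gene this low, since its 50 reads with 4SU+UVA against 22 in untreated cells correspond to a 3.23 ratio per library read (1.92 to 5.61, exact 95%). Such intervals cover counting error only, because reads were pooled over the libraries of a group and the spread between libraries is left out. They would be too narrow if PCR copies of one fragment were counted as separate reads.

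DUSP8, another phosphatase of JNK and p38, did not reach the filter, and its values are given as a description. It stood at 0.853, 0.709 and 1.25 RPKM with 4SU+UVA, 0.394, 0.303 and 0.597 RPKM with 4SU, 0.334, 0.455 and 0.632 RPKM with UVA, and 0.593, 0.213 and 0.616 RPKM in untreated cells. The 4SU+UVA libraries were again above the other 9, though by a narrow margin. Its 44 reads with 4SU+UVA against 31 in untreated cells correspond to a 2.02 ratio per library read (1.25 to 3.31, exact 95%). Without any filter the log2 change was 0.57 from untreated (limma adjusted p = 0.0462), 0.62 from 4SU (limma adjusted p = 0.0437) and 0.56 from UVA (limma adjusted p = 0.0568). RefSeq lists pseudogenes of DUSP8, and the sources used here do not say how shared reads were counted, so its values are uncertain.

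DUSP16, a JNK phosphatase that shuttles between nucleus and cytoplasm, showed little movement despite being well covered, at 62 to 217 reads a library. Its density was 5.89, 4.90 and 5.08 RPKM with 4SU+UVA, 4.40, 5.13 and 5.25 RPKM with 4SU, 4.43, 5.20 and 5.24 RPKM with UVA, and 4.44, 4.66 and 4.61 RPKM in untreated cells. The 4SU+UVA libraries lay just above the untreated ones but overlapped with both single treatments. Its log2 change from untreated was 0.19 (95% interval -0.08 to 0.46, limma adjusted p = 0.21), and relative to the median gene it was -0.05. The direction depended on scaling, since quantile normalisation gave -0.12.

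**Figure D3:**
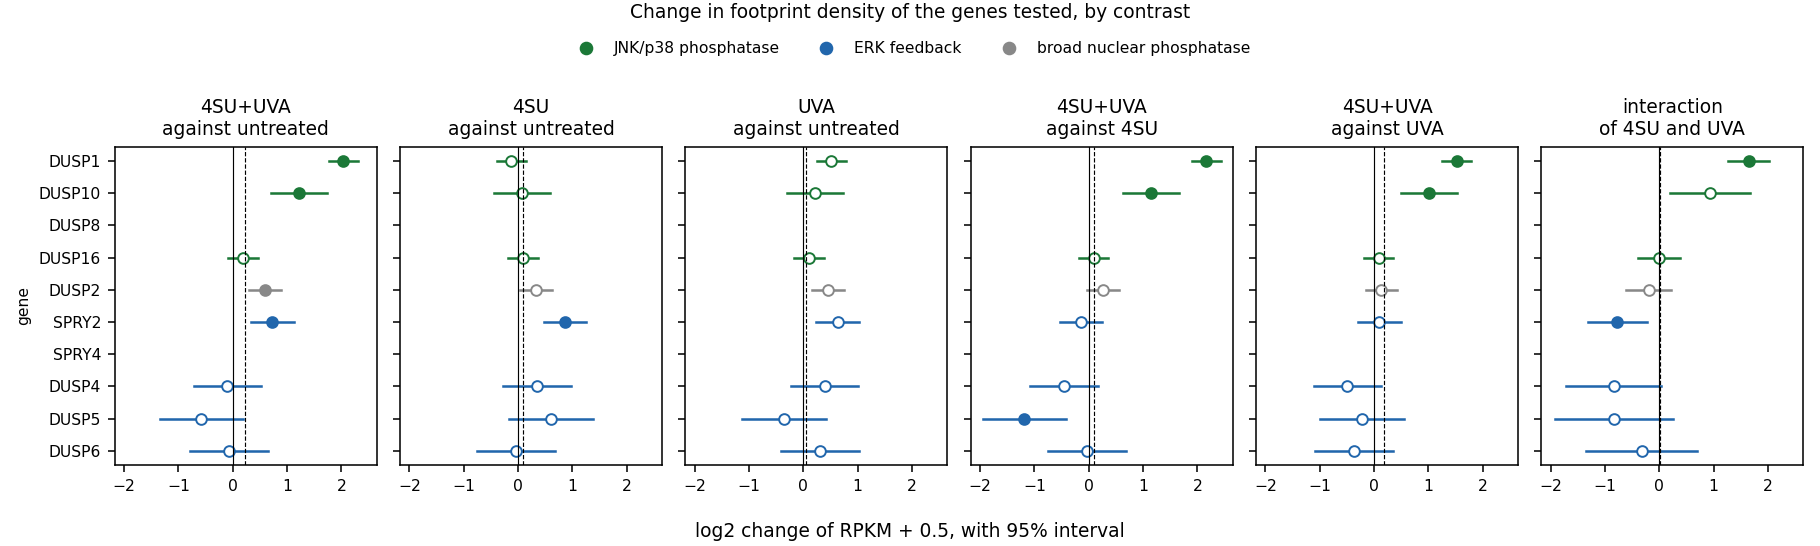
Log2 change of RPKM + 0.5 in the 8 tested genes for 5 pairwise contrasts and the interaction, with 95% intervals, coloured by function. Filled points passed at adjusted p under 0.05, the dashed line is the median gene, and DUSP8 and SPRY4 have empty rows since they did not pass the filter. DUSP1 and DUSP10 stand to the right of 0 with filled points in all 3 contrasts that have 4SU+UVA on top, where the filter favoured DUSP10.

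DUSP2 rose by a smaller amount. Its density was 20.3, 16.6 and 19.5 RPKM with 4SU+UVA, 19.2, 14.5 and 13.5 RPKM with 4SU, 15.7, 16.7 and 18.5 RPKM with UVA, and 13.95, 10.5 and 12.7 RPKM in untreated cells. Untreated libraries were below all 4SU+UVA and all UVA ones, while the 3 treated groups overlapped. The log2 change with 4SU+UVA was 0.59 (SE 0.14, limma adjusted p = 0.0022), or 0.35 above the median gene. This rise ranked 2773 from the top among 11510 genes. Against 4SU and against UVA the log2 change was 0.26 and 0.14 (95% intervals -0.04 to 0.55 and -0.16 to 0.43), and neither passed.

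Among the ERK feedback genes, SPRY2 was the one that rose. Sprouty proteins are induced by growth factor signalling and damp the path from receptor tyrosine kinases to ERK. SPRY2 stood at 2.47, 3.30 and 2.30 RPKM with 4SU+UVA, 2.50, 3.32 and 3.19 RPKM with 4SU, 1.98, 2.59 and 2.88 RPKM with UVA, and 1.37, 1.54 and 1.33 RPKM in untreated cells. Every treated library lay above every untreated one, and the 3 treated groups overlapped. The log2 change was 0.73 with 4SU+UVA (SE 0.18, limma adjusted p = 0.0034), or 0.50 above the median gene. This rise ranked 1851 from the top among 11510 genes. Under quantile normalisation the call was lost, at 0.31 (limma adjusted p = 0.17).

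The ERK phosphatases DUSP6, in the cytoplasm, and DUSP5, in the nucleus, did not pass between 4SU+UVA and untreated cells. DUSP6 stood at 1.94, 1.07 and 2.51 RPKM with 4SU+UVA, 0.767, 2.41 and 2.83 RPKM with 4SU, 2.89, 2.45 and 1.99 RPKM with UVA, and 2.16, 1.26 and 2.36 RPKM in untreated cells, and all 4 groups overlapped. Its log2 change was -0.07, with a 95% interval of -0.79 to 0.65 (limma adjusted p = 0.87). DUSP5 stood at 1.75, 0.212 and 1.33 RPKM with 4SU+UVA, 3.74, 2.36 and 2.33 RPKM with 4SU, 0.842, 1.41 and 1.31 RPKM with UVA, and 1.07, 1.91 and 2.08 RPKM in untreated cells. The 4SU libraries of DUSP5 were higher than all others. Its log2 change with 4SU+UVA was -0.58, with a 95% interval of -1.34 to 0.19 (limma adjusted p = 0.18).

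DUSP4, a nuclear phosphatase of ERK and JNK, and SPRY4, the relative of SPRY2, were too thinly covered for small changes to show. DUSP4 stood at 0.795, 0.178 and 1.22 RPKM with 4SU+UVA, 1.10, 0.987 and 1.12 RPKM with 4SU, 1.21, 1.18 and 0.952 RPKM with UVA, and 0.625, 0.704 and 0.869 RPKM in untreated cells. Untreated DUSP4 was below both single treatments and within the range of 4SU+UVA, where replicate 2 held 1 read. Its log2 change with 4SU+UVA was -0.10, with a 95% interval of -0.72 to 0.52 (limma adjusted p = 0.79). SPRY4 stood at 0.293, 0.107 and 0 RPKM with 4SU+UVA, 0.203, 0.364 and 0.404 RPKM with 4SU, 0.0603, 0.224 and 0.263 RPKM with UVA, and 0.160, 0.230 and 0.347 RPKM in untreated cells. All groups overlapped, and the library with no read allows up to 3 reads, or 0.200 RPKM. Its 9 reads with 4SU+UVA against 19 in untreated cells correspond to a 0.674 ratio per library read (0.269 to 1.56, exact 95%). Without any filter its log2 change with 4SU+UVA was -0.25 from untreated cells (limma adjusted p = 0.295). It was -0.40 from 4SU (limma adjusted p = 0.126) and -0.12 from UVA (limma adjusted p = 0.641).

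**Figure D4:**
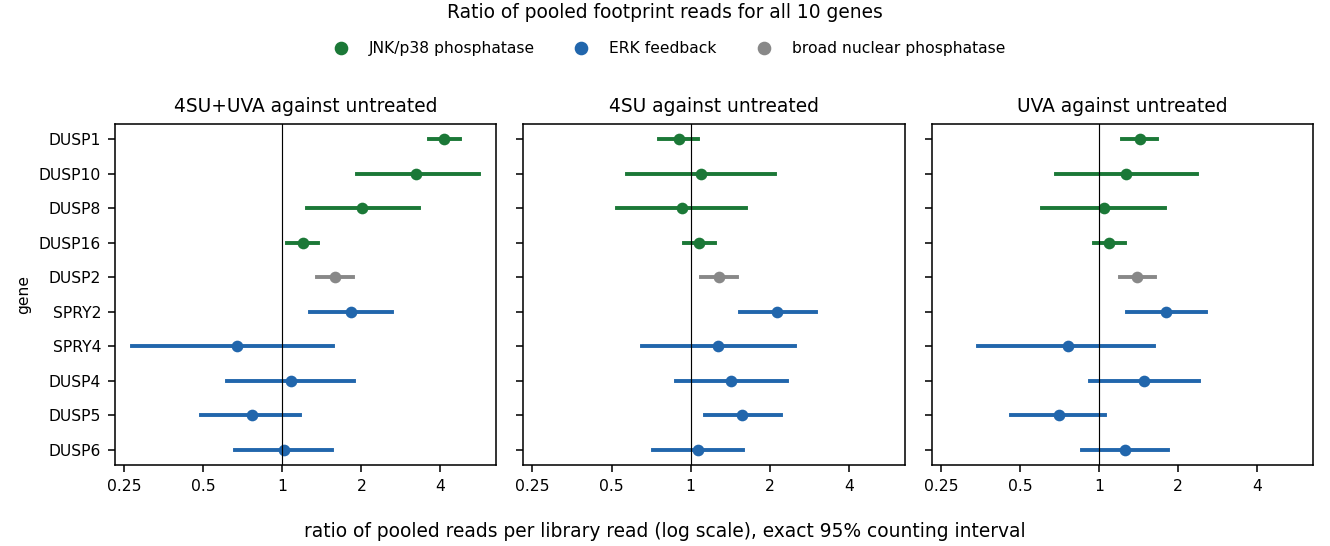
Ratio of pooled reads per library read for all 10 genes in each treated group against untreated cells, on a log axis, with exact 95% intervals for counting error only. With 4SU+UVA the intervals of DUSP1, DUSP10, DUSP8, DUSP16, DUSP2 and SPRY2 lie above 1, and those of SPRY4, DUSP4, DUSP5 and DUSP6 span it.

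The contrast of both functions was read within each library, which takes only part of the library scaling out. With the added 0.5 RPKM, low genes shift less with scaling than DUSP1 does. Other scalings were not tried for this contrast. The mean log2 difference from untreated cells was 1.0 ± 0.17 over the 4 JNK and p38 phosphatases and -0.05 ± 0.36 over the 5 ERK feedback genes with 4SU+UVA (SD, n = 3 each). The first minus the second was 0.70, 1.39 and 1.08 in the 4SU+UVA libraries. It was -0.22, -0.53 and -0.41 in cells given 4SU, 0.08, -0.05 and 0.11 in cells given UVA, and 0.11, -0.02 and -0.09 in untreated cells. Thus the 4SU+UVA libraries lay above the other 9 and the 4SU libraries below them. Without DUSP1 the 4SU+UVA values were 0.37, 1.06 and 0.71, still above the other 9. The highest came from the shallow replicate 2, where DUSP4 and DUSP5 held 1 read each. These values rest on thin coverage, since DUSP10 held 11 to 20 reads and DUSP8 6 to 21 in a 4SU+UVA library. The well-covered DUSP16 changed by only 0.19 from untreated. All values of this contrast are descriptions of genes chosen with results known, so they carry no p.

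Summed density told the same in RPKM. The 4 JNK and p38 phosphatases added to 51.6 ± 8.57 RPKM with 4SU+UVA, 15.2 ± 1.09 with 4SU, 20.8 ± 0.765 with UVA and 15.7 ± 1.35 in untreated cells (SD, n = 3 each). DUSP1 made most of that difference, since the sums without it were 8.24 ± 0.457 with 4SU+UVA and 5.61 ± 0.071 in untreated cells. The 5 ERK feedback genes added to 6.50 ± 1.41 RPKM with 4SU+UVA, 9.21 ± 0.804 with 4SU, 7.41 ± 0.438 with UVA and 6.00 ± 0.863 in untreated cells. DUSP1 alone held 56.2 ± 4.16% of the summed density of the 10 genes with 4SU+UVA, against 29.7 ± 2.35% in untreated cells.

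**Figure D5:**
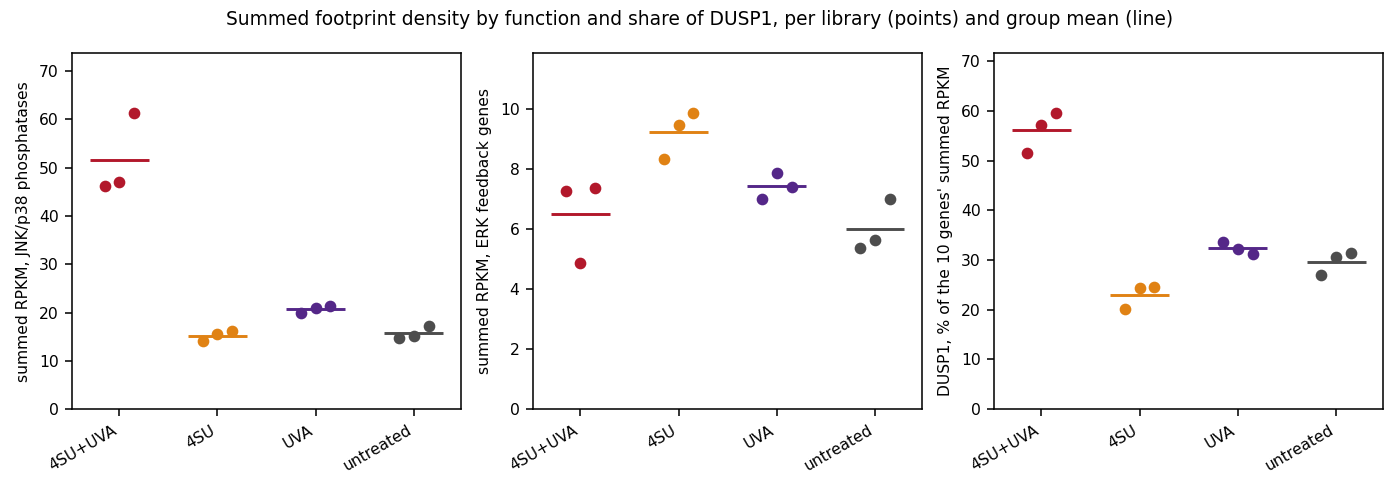
Summed RPKM of the 4 JNK and p38 phosphatases (left), summed RPKM of the 5 ERK feedback genes (middle) and the percentage of the 10 genes' summed RPKM held by DUSP1 (right), with 1 point per library and a line at the group mean, all from 0. The 4SU+UVA points are the highest in the left and right panels, and the 4SU points are the highest in the middle one.

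4SU alone asks what the nucleoside does without light, and among the genes described here it raised SPRY2 only. That is 1 of 8 tested genes, where 14.4% of all genes passed in either direction, 11.3% up and 3.12% down. SPRY2 changed by 0.87 on the log2 scale (SE 0.18, limma adjusted p = 0.0073), or 0.78 above the median gene, from 106 reads with 4SU and 57 in untreated cells. DUSP5 and DUSP4 had 4SU libraries above all untreated ones but did not pass, at 0.61 and 0.35 (95% intervals -0.16 to 1.37 and -0.27 to 0.97). Among all tested genes, 25.1% had 4SU libraries wholly above the untreated ones. DUSP1 was at -0.13 (95% interval -0.39 to 0.14), DUSP10 at 0.08 and DUSP16 at 0.09, none of which passed, and the last 2 turned negative under median centring.

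UVA alone changed none of the 8 tested genes by the adjusted test, where 0.652% of all genes passed, 0.278% up and 0.374% down. At an unadjusted p under 0.05 there were 3 of 8, all higher, namely DUSP1, DUSP2 and SPRY2, where 8.43% of all tested genes passed in either direction and 6.73% upward. By limma, voom on recovered reads also called 0 of the 8 after adjustment. DUSP1 was at 0.52 (95% interval 0.25 to 0.78, limma adjusted p = 0.11), SPRY2 at 0.63 (0.24 to 1.02, limma adjusted p = 0.24) and DUSP2 at 0.45 (0.15 to 0.74, limma adjusted p = 0.29). These 3 and DUSP4 had UVA libraries wholly above the untreated ones, as did 12.8% of all tested genes. Leaving out replicate 3 of 4SU+UVA, which enters only through the shared spread, brought DUSP1 to limma adjusted p = 0.035 at the same change.

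Light in cells that carried 4SU, read from 4SU+UVA against 4SU, raised DUSP1 and lowered DUSP5. That is 2 of the 7 genes other than DUSP10, where 44.0% of all genes passed, 25.0% up and 19.0% down. Among these 7, DUSP1 and DUSP5 were those without overlap between libraries, as were 29.6% of all tested genes upward and 21.4% downward. DUSP5 fell by 1.18 on the log2 scale (SE 0.36, limma adjusted p = 0.015), or -1.27 relative to the median gene. Its 35 reads with 4SU+UVA against 89 with 4SU correspond to a 0.487 ratio per library read (0.319 to 0.727, exact 95%). That fall rests on single libraries. Without replicate 2 of 4SU+UVA, which held 1 DUSP5 read, it was -0.68 (limma adjusted p = 0.066), and without replicate 1 of 4SU it was -0.99 (limma adjusted p = 0.064). DUSP2 did not pass, but did without replicate 1 of 4SU (0.40, limma adjusted p = 0.0263). SPRY2, DUSP6 and DUSP4 did not pass, at -0.14, -0.03 and -0.45 (95% intervals -0.53 to 0.25, -0.74 to 0.69 and -1.07 to 0.17).

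4SU in irradiated cells, read from 4SU+UVA against UVA, raised DUSP1, and besides DUSP10 no other tested gene passed. That is 1 of the 7 without DUSP10, where 54.4% of all genes passed, 34.7% up and 19.8% down. DUSP1 alone of these 7 had 4SU+UVA libraries wholly above the UVA ones, as did 37.9% of all tested genes. SPRY2 was at 0.10 and DUSP16 at 0.09 (95% intervals -0.29 to 0.49 and -0.18 to 0.36). DUSP4 was at -0.49 (95% interval -1.11 to 0.13), and passed without replicate 3 of 4SU+UVA (-0.78, limma adjusted p = 0.0353).

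A further term asked whether 4SU and light together did more or less than both effects added up. This interaction is the change on UVA in 4SU-fed cells less the change on UVA in unfed ones. It passed for 2 of 8 genes in opposite directions, where 24.8% of all genes passed, 10.7% above 0 and 14.1% below. DUSP1 lay above the sum by 1.65 on the log2 scale (SE 0.18, limma adjusted p = 1.6e-05), or 1.63 relative to the median gene, and passed in each of its 21 alternatives. SPRY2 lay below the sum at -0.77 (SE 0.26, limma adjusted p = 0.042), or -0.79 relative to the median gene, but did not pass in 9 of 12 leave-one-out fits, at -0.82 to -0.67. These left out replicates 1 or 3 of 4SU+UVA, 2 or 3 of 4SU, 2 or 3 of UVA, or any untreated one. SPRY2 also did not pass with no filter (limma adjusted p = 0.0593) or after median centring (limma adjusted p = 0.0523). In all it did not pass in 11 of its 20 alternatives, with limma adjusted p of 0.019 to 0.098 over the 20. DUSP10 did not pass at 0.93 (95% interval 0.20 to 1.66, limma adjusted p = 0.062), in a fit whose filter favoured it. It passed in 6 of its 20 alternatives and not in the other 14 (limma adjusted p from 0.025 to 0.18). The fit with no filter was among the 6 (limma adjusted p = 0.0424), so the call depended on the setting. DUSP4, DUSP5 and DUSP6 were at -0.84, -0.83 and -0.33, with 95% intervals that span 0. DUSP4 passed without replicate 3 of 4SU+UVA (-1.13, limma adjusted p = 0.0471), and DUSP2 and DUSP16 were at -0.19 and -0.01.

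The genes whose pattern was most like DUSP1 over the 12 libraries were sought by Pearson r of log2(RPKM + 0.5) among 8129 genes with a mean of at least 5 RPKM. The closest was ENSG00000177606.8 (r = 0.978), at 349 ± 87.4 RPKM with 4SU+UVA and 6.04 ± 0.903 RPKM in untreated cells (SD, n = 3 each). Next was ENSG00000160888.7 (r = 0.978), at 136 ± 28.2 RPKM with 4SU+UVA and 23.6 ± 3.28 RPKM in untreated cells. The table pairs its identifiers with no symbols, so these genes and other genes of the MAP kinase pathways are not named, and markers of cell types were not examined. All points share libraries, and the values describe likeness only. For DUSP6 and SPRY4 the highest r was 0.829 and 0.82, but with 4 to 27 and 0 to 10 reads a library these values are dominated by few reads and name no gene.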

How the data were processed

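The 12 libraries hold ribosome footprints from HAP1 cells, and groups and replicate numbers came from the sample titles. The authors deposited 1 table of RPKM values per gene, named by Ensembl gene and transcript, with no pooling of replicates per the file headers. STAR 2.7.10a and the hg38 build are named per the submitters' processing notes. How reads were counted and filtered is not given in the sources used here.

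Whole reads, transcript lengths and library totals were recovered from the RPKM steps for all 15937 genes with a read, within 0.001 reads, a step checked on simulated data. Differences were tested with limma 3.58.1 under R 4.3.3, two-sided, by lmFit and eBayes with a variance trend. The deposited scaling was kept and values entered as log2(RPKM + 0.5), with a mean for each group over 12 libraries. The fit was also tested on simulated data. Genes had to reach 1 RPKM in 3 or more libraries. Adjustment was over all 11510 genes tested. Symbols of the 10 genes came with the choice of the set, and the members and lists were chosen with earlier results of these data known. All 10 were named whatever their values. Genes most like DUSP1, DUSP6 and SPRY4 were ranked by Pearson r, and at most 2 identifiers were printed. Pooled read ratios have exact 95% Clopper-Pearson intervals. Lists of other pathway genes and cell type markers could not be used without symbols. Alternatives were the pseudocount, the filter, the scaling, the variance trend, a replicate block, limma voom on recovered reads and leaving out each library.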

Additional observations from a re-analysis of the deposited data

Results flagged for a closer look

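In 2 genes the effect of UVA differed between cells with and without 4SU by the interaction test. For DUSP1 the UVA effect was 2.16 on the log2 scale with 4SU and 0.52 without it, a difference of 1.65 (limma adjusted p = 1.6e-05), and the 3 4SU+UVA libraries lay above the other 9. For SPRY2 the UVA effect was -0.14 with 4SU and 0.63 without it, a difference of -0.77 (limma adjusted p = 0.042). That call was lost in 11 of 20 alternatives, among them 9 of 12 leave-one-out fits. Here neither single UVA effect passed on its own.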

How the results depend on the processing

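Over 48 log2 changes and their 978 alternatives, 916 kept their direction and side of the threshold, 14 lost it, 14 gained it, 34 values that never passed changed sign, and 0 called values reversed. Counts here include DUSP10, whose tests of 4SU+UVA the filter favoured. In the main fits the share of all tested genes called was 59.0% for 4SU+UVA against untreated, 14.4% for 4SU and 0.652% for UVA. It was 44.0% for 4SU+UVA against 4SU, 54.4% for 4SU+UVA against UVA and 24.8% for the interaction. With a filter of at least 5 RPKM, which left DUSP1, DUSP2 and DUSP16 of the set, the genes called were 2 for 4SU+UVA against untreated, 0 for 4SU, 1 for 4SU+UVA against 4SU, 1 for 4SU+UVA against UVA and 1 for the interaction, by construction of fewer genes tested. Leaving out each library gave 4 for 4SU+UVA against untreated throughout, 1 for 4SU throughout, 0 to 1 for UVA, 2 to 3 for 4SU+UVA against 4SU, 2 to 3 for 4SU+UVA against UVA and 1 to 3 for the interaction. Libraries with the same replicate number did not visibly deviate together (r from -0.0457 to 0.0679 over 18 pairs). Those with different numbers gave r from -0.0678 to 0.0619 over 36 pairs. Counting noise can hide a shared deviation, so whether the numbers pair the samples was not settled. With a replicate block the genes called were 4, 1, 3, 2 and 2 in the contrasts other than UVA against untreated, as without it, and 1 for UVA against untreated, where DUSP1 passed (0.52, limma adjusted p = 0.044). Quantile normalisation called DUSP5 lower with 4SU+UVA against untreated (-0.96, limma adjusted p = 0.027) and DUSP4 lower against 4SU (-0.70, limma adjusted p = 0.044) and against UVA (-0.84, limma adjusted p = 0.017), and the cause was not tested. Among all genes, UVA against untreated gave 75 genes, with 45 without a filter, 42 under quantile normalisation and 27 without the variance trend. For 4SU against untreated 1654 genes became 726 and 772 without 4SU replicates 1 and 2, and 872 and 869 without untreated replicates 2 and 3. Depth limits DUSP4, DUSP5, DUSP6, DUSP8, DUSP10, SPRY2 and SPRY4, which had at most 40 reads in any library.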
